A study of Caenorhabditis elegans with 11 samples.

Results

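The bins described here are 169 stretches of 1 kb of the Caenorhabditis elegans genome, of 100257 in the deposited table, in which RNA polymerase II (Pol II) was higher when SET-32 was lost in animals that already lacked HRDE-1. They were chosen by their values. Pol II in the set-32 hrde-1 mutant had to be at least 1.5 times that of the hrde-1 mutant, and Pol II in the quadruple mutant, which lacks set-32, hrde-1, met-2 and set-25, at least 1.5 times that of the met-2 set-25 hrde-1 triple mutant. Both set-32 mutants had to reach 10 RPKM (reads per kilobase, scaled to the total reads of the library). Bins that the table marks as misanotated (spelled as there) were left out, which removed 2 bins that met the other conditions. The 4 libraries with hrde-1 lost thus defined the set, and all values in them are given as a description. The 4 libraries with hrde-1 intact were not used to choose the bins.

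Pol II was mapped by chromatin immunoprecipitation and sequencing (ChIP-seq) in whole young adult hermaphrodites fed E. coli OP50, with 1 library for each of 8 genotypes. All genotypes with hrde-1 lost carried hrde-1(tm1200): set-32 hrde-1 with set-32(red11), hrde-1 alone, the quadruple mutant with set-32(red11) and both met-2(n4256) and set-25(n5021), and met-2 set-25 hrde-1 without set-32(red11). Those with hrde-1 intact were set-32, N2 (the wild-type strain), set-32 met-2 set-25, and met-2 set-25, with the same alleles. No genotype had a replicate, and 1 allele represents each gene. The animals were profiled whole, so a smaller share of cells with Pol II at a bin and less Pol II per cell cannot be told apart. The 3 samples of histone H3 trimethylated at lysine 9 (H3K9me3) in the series were not analysed here.

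HRDE-1 is an Argonaute protein of the germline that carries small RNAs into the nucleus, where they guide transcriptional silencing and heterochromatin formation at matching genes and repeats. Such nuclear RNA interference (RNAi) can pass to later generations. SET-32 is a SET domain protein of the class that holds histone methyltransferases and acts in the same pathway. MET-2 and SET-25 are methyltransferases of histone H3 lysine 9. The study is about the part of SET-32 in setting up such silencing. That its loss went with more Pol II where HRDE-1 was lost was a condition for choosing the bins. The comparison tested below is loss of SET-32 with HRDE-1 intact. The authors marked 191 bins of the table as GRTS and 215 as GRH, the field's names for regions that germline nuclear RNAi silences in transcription and packs as heterochromatin. The sources used here do not give the criteria of these marks.

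The libraries held an estimated 3004000 to 6599000 reads, so that 10 RPKM rested on 30.04 to 65.99 reads and a counting error of 12.3 to 18.2%. The quadruple mutant and set-32 met-2 set-25 libraries stood apart by their even coverage. Their 90th percentile of bins was 4.31 and 3.72 times their 10th, against 7.63 to 24.96 times in the other libraries. The median bin read 7.18 RPKM in the quadruple mutant and 4.67 RPKM in the met-2 set-25 hrde-1 triple, a ratio of 1.54. For set-32 hrde-1 and hrde-1 it read 3.96 and 4.2 RPKM, a ratio of 0.943. The library names of set-32 hrde-1 and hrde-1 share a prefix (SG0117), whereas in every other comparison of set-32 loss the prefix changes with the genotype. The labels do not say what the prefix stands for.

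By the rule, every member had more Pol II where set-32 and hrde-1 were lost together than where hrde-1 was lost and set-32 intact. Against libraries with hrde-1 intact this did not hold at every member. The quadruple mutant was below the set-32 met-2 set-25 triple at 23 of the 169 members. In set-32 hrde-1 the bins read 10.07 RPKM at the lowest, 28.4 RPKM at the median and 215 RPKM at the highest, and in hrde-1 they read 2.27, 9.62 and 89.9 RPKM. In the quadruple mutant they read 10.1, 21.9 and 216 RPKM, and in the met-2 set-25 hrde-1 triple they read 1.82, 9.09 and 107 RPKM. With hrde-1 intact the medians lay close together, at 5.27 RPKM in set-32, 6.21 RPKM in N2, 8.86 RPKM in the set-32 met-2 set-25 triple and 7.27 RPKM in met-2 set-25. Relative to the median of all bins of its library, the member median was 7.17 times as high in set-32 hrde-1 and 2.29 times in hrde-1, 3.04 times in the quadruple mutant and 1.95 times in the met-2 set-25 hrde-1 triple, and 1.21 to 1.46 times in the 4 libraries with hrde-1 intact.

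**Figure D1:**
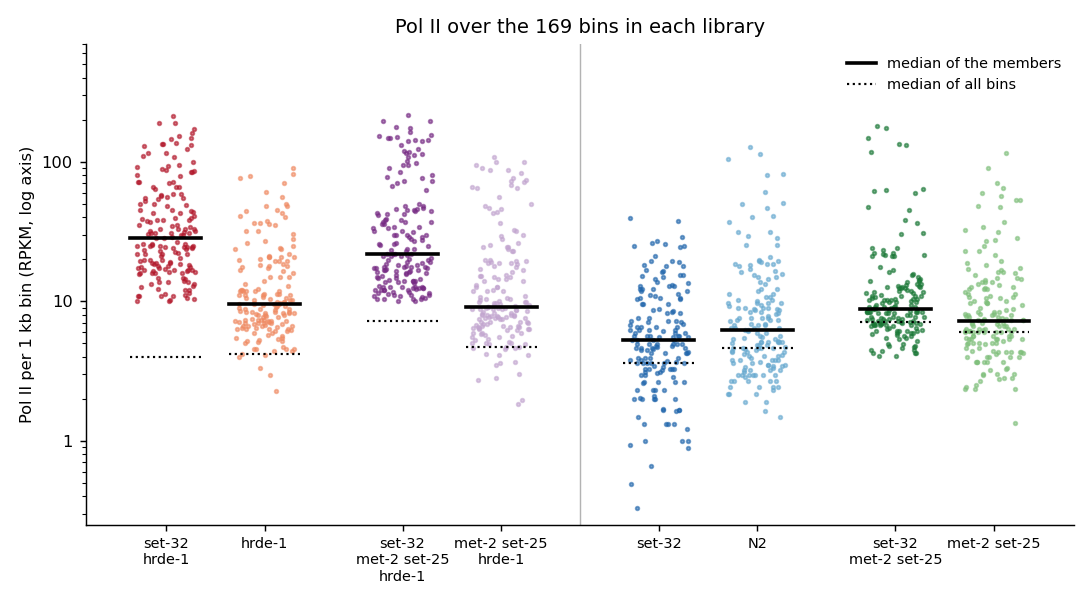
Pol II in RPKM (log axis) of each of the 169 member bins (points) in the 8 libraries, with the median of the members (solid line) and of all bins (dotted line). The libraries left of the vertical line lack hrde-1 and chose the bins; the members' medians there are 28.4 RPKM in set-32 hrde-1, 9.62 RPKM in hrde-1, 21.9 RPKM in the quadruple mutant and 9.09 RPKM in the met-2 set-25 hrde-1 triple, and 5.27 to 8.86 RPKM in the libraries with hrde-1 intact.

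The folds that chose the bins were mostly modest. The fold of set-32 hrde-1 over hrde-1 had a median of 2.62 and reached 15.5, and that of the quadruple mutant over met-2 set-25 hrde-1 had a median of 2.12 and reached 16.9. Both folds were at least 2 in 70 bins and at least 3 in 13. The fold was larger without loss of met-2 and set-25 in 109 bins and larger with it in 60. The 5 bins just inside the threshold had a smaller fold of 1.51 to 1.52, and the 5 just outside it 1.493 to 1.495. At 10 RPKM, a fold of 1.5 carried a counting error of 0.30 log2 units in the first pair of libraries and 0.34 in the second, against a threshold of 0.58 log2 units. Counting error is the only error that could be computed for these folds, since neither pair was replicated. Variation between animals and between libraries also enters them and could not be estimated.

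The same rule turned round found more bins, but scattered ones. In 203 bins Pol II was at least 1.5 times higher in hrde-1 than in set-32 hrde-1, and in the met-2 set-25 hrde-1 triple than in the quadruple mutant, where both of these libraries with set-32 intact reached 10 RPKM. Members with at most 1 bin between them formed 70 regions, of which 28 held at least 2 member bins and 11 at least 5. The 11 regions held 81 of the 169 members. Bins of the reverse pattern formed 181 regions of at most 3 bins, and 162 of them stood alone, against 42 single members. The count of bins was thus not higher in the direction of more Pol II, and runs of at least 5 bins were found on that side alone. This depended on scaling. When each library was divided by its median over all bins, 71 bins met the rule, 60 of them among the 169, and 572 bins met the reverse. Regions of at least 5 bins then held 25 of the 71 in 4 regions, and 21 of the 572 in 4 regions.

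**Figure D2:**
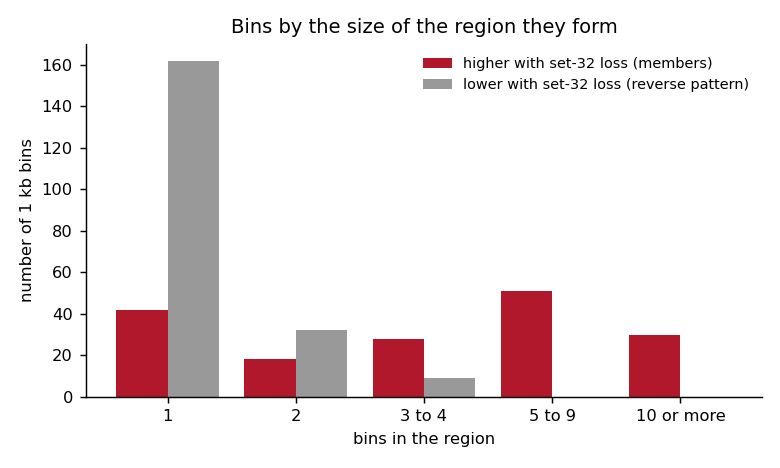
Number of 1 kb bins (vertical axis) by the number of bins in the region they form (horizontal axis), for the members and for bins of the reverse pattern, which were lower with set-32 loss in both pairs of libraries with hrde-1 lost. Regions of 5 to 9 bins hold 51 members and those of 10 or more hold 30, and 0 bins of the reverse pattern lie in regions of 5 or more.

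The members were then divided by what hrde-1 loss did without loss of set-32. Pol II was at least 1.5 times higher in hrde-1 than in N2 at 86 members, a change found at 12.3% of all bins, and at least 1.5 times higher in the met-2 set-25 hrde-1 triple than in met-2 set-25 at 80 members, against 10.3% of all bins. Lower by the same factor were 31 members in the first comparison and 36 in the second, against 19.5% and 31.4% of all bins. Both increases held at 62 members, against 2.28% of all bins, 1 of the pair at 42 and neither at 65. These shares use the hrde-1 libraries that served as denominators in choosing the bins, so nothing is read from them beyond the description. The name prefix also changes between hrde-1 and N2, so prefix and genotype cannot be told apart in that pair. The met-2 set-25 hrde-1 triple and met-2 set-25 share a prefix. For the 62 bins the name of an enhanced hrde-1 effect describes the values. Their median log2 difference on the log2(RPKM + 1) scale, which is used for all log2 differences and understates changes of low bins, was 1.52 for hrde-1 against N2, and 1.56 for set-32 hrde-1 against hrde-1. With met-2 and set-25 lost the corresponding medians were 1.56 for met-2 set-25 hrde-1 against met-2 set-25 and 1.00 for the further loss of set-32.

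For the other bins the name holds in part or not at all. At the 65 bins that neither hrde-1 mutant raised, the median log2 difference of hrde-1 against N2 was -0.29, and that of met-2 set-25 hrde-1 against met-2 set-25 was -0.58. At 29 of the 169 members, set-32 hrde-1 did not exceed N2, the quadruple mutant did not exceed met-2 set-25, or both. At these 29 the median log2 difference was -1.01 for hrde-1 against N2 and -1.83 for met-2 set-25 hrde-1 against met-2 set-25. Against the libraries that also lack set-32, set-32 hrde-1 exceeded set-32 at all 29, with a median log2 difference of 0.87, and the quadruple mutant exceeded the set-32 met-2 set-25 triple at 7 of them, with a median of -0.64. At 139 members, set-32 hrde-1 was the highest library of hrde-1, set-32, N2 and itself, and the quadruple mutant was likewise the highest of its 4.

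The longest run lay on chromosome III from 13224001 to 13241000, with 16 members in 17 kb, 3 of them marked GRTS. Over the member bins Pol II averaged 46.4 RPKM in set-32 hrde-1 against 8.9 RPKM in hrde-1, and 26.4 RPKM in the quadruple mutant against 12.2 RPKM in the met-2 set-25 hrde-1 triple. With hrde-1 intact it averaged 2.85 RPKM in set-32, 4.42 RPKM in N2, 6.34 RPKM in the set-32 met-2 set-25 triple and 4.22 RPKM in met-2 set-25. The 4 libraries with hrde-1 lost were all above the 4 others. In the bin from 13237001 to 13238000 hrde-1 read 5.19 RPKM, near the 4.55 RPKM of N2, whereas set-32 hrde-1 read 50.2 RPKM. At the right end, 13240001 to 13241000, the levels were 161 RPKM in set-32 hrde-1 against 26.4 RPKM in hrde-1, and 79.9 RPKM in the quadruple mutant against 47.9 RPKM in the met-2 set-25 hrde-1 triple. In the next bin outside, the second contrast was reversed, at 39.7 RPKM in the quadruple mutant against 63.8 RPKM in that triple. The first was not, at 140 RPKM in set-32 hrde-1 against 33.9 RPKM in hrde-1. The non-member bin inside the run had the same pattern. It read 16.5 RPKM in the quadruple mutant against 30.7 RPKM in the triple, and 38.1 RPKM in set-32 hrde-1 against 16.6 RPKM in hrde-1. In 14 of the 16 bins most values of at most 20 RPKM were not whole numbers of reads (to within 0.1 read), and the part of reads shared with other places in these levels was not tested.

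A 15 kb region of chromosome V, 5192001 to 5207000, held 14 members, 9 of them GRTS bins. Pol II averaged 71.2 RPKM in set-32 hrde-1 against 25.9 RPKM in hrde-1, and 35.5 RPKM in the quadruple mutant against 18.1 RPKM in the met-2 set-25 hrde-1 triple. The 4 libraries with hrde-1 intact averaged 4.97 to 6.79 RPKM, with set-32 at 4.97 RPKM and N2 at 5.81 RPKM. The contrast was uneven along the region. At its left end, 5192001 to 5193000, set-32 hrde-1 read 135 RPKM against 81.5 RPKM in hrde-1, and at 5203001 to 5204000 it read 49.8 RPKM against 8.39 RPKM. To the right, 4 members between 5211001 and 5216000 averaged 27.9 RPKM in set-32 hrde-1 against 13.7 RPKM in hrde-1, and 9.65 to 13.8 RPKM with hrde-1 intact.

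Chromosome IV carried several of the strongest regions. From 913001 to 921000, where 6 of 7 members are GRTS bins, Pol II averaged 112 RPKM in set-32 hrde-1 against 12.3 RPKM in hrde-1, a 9.15-fold difference. With met-2 and set-25 lost it averaged 161 RPKM in the quadruple mutant against 82.0 RPKM in the met-2 set-25 hrde-1 triple, a 1.96-fold difference. The hrde-1 library was thus low among the 4 hrde-1 mutants, and the 4 libraries with hrde-1 intact were lower still, at 3.1 to 7.62 RPKM. With the libraries divided by their medians 0 of these 7 bins met the rule. The reverse held from 16312001 to 16319000, with 7 members and 2 GRTS bins. There the quadruple mutant averaged 99.5 RPKM against 12.5 RPKM in the met-2 set-25 hrde-1 triple, a 7.96-fold difference, and set-32 hrde-1 averaged 34.1 RPKM against 14.5 RPKM in hrde-1, a 2.34-fold difference. The libraries with hrde-1 intact read 3.57 to 9.96 RPKM.

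From 1131001 to 1138000 of chromosome IV, 6 members averaged 46.8 RPKM in set-32 hrde-1 against 16.9 RPKM in hrde-1, and 21.6 RPKM in the quadruple mutant against 8.72 RPKM in the met-2 set-25 hrde-1 triple. Only 1 of the 6 was a GRTS bin. From 1448001 to 1452000, 4 members, 312 kb from the nearest GRTS bin, averaged 44.5 RPKM in set-32 hrde-1 against 14.7 RPKM in hrde-1, and 36.7 RPKM in the quadruple mutant against 13.2 RPKM in the met-2 set-25 hrde-1 triple. In this region the libraries with hrde-1 intact differed, at 3.82 RPKM in set-32 against 5.19 RPKM in N2, and at 16.0 RPKM in the set-32 met-2 set-25 triple against 9.15 RPKM in met-2 set-25. The single member from 1106001 to 1107000 read 10.9 RPKM in set-32 hrde-1 against 6.99 RPKM in hrde-1, and 44.0 RPKM in the quadruple mutant against 14.6 RPKM in the met-2 set-25 hrde-1 triple.

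**Figure D3:**
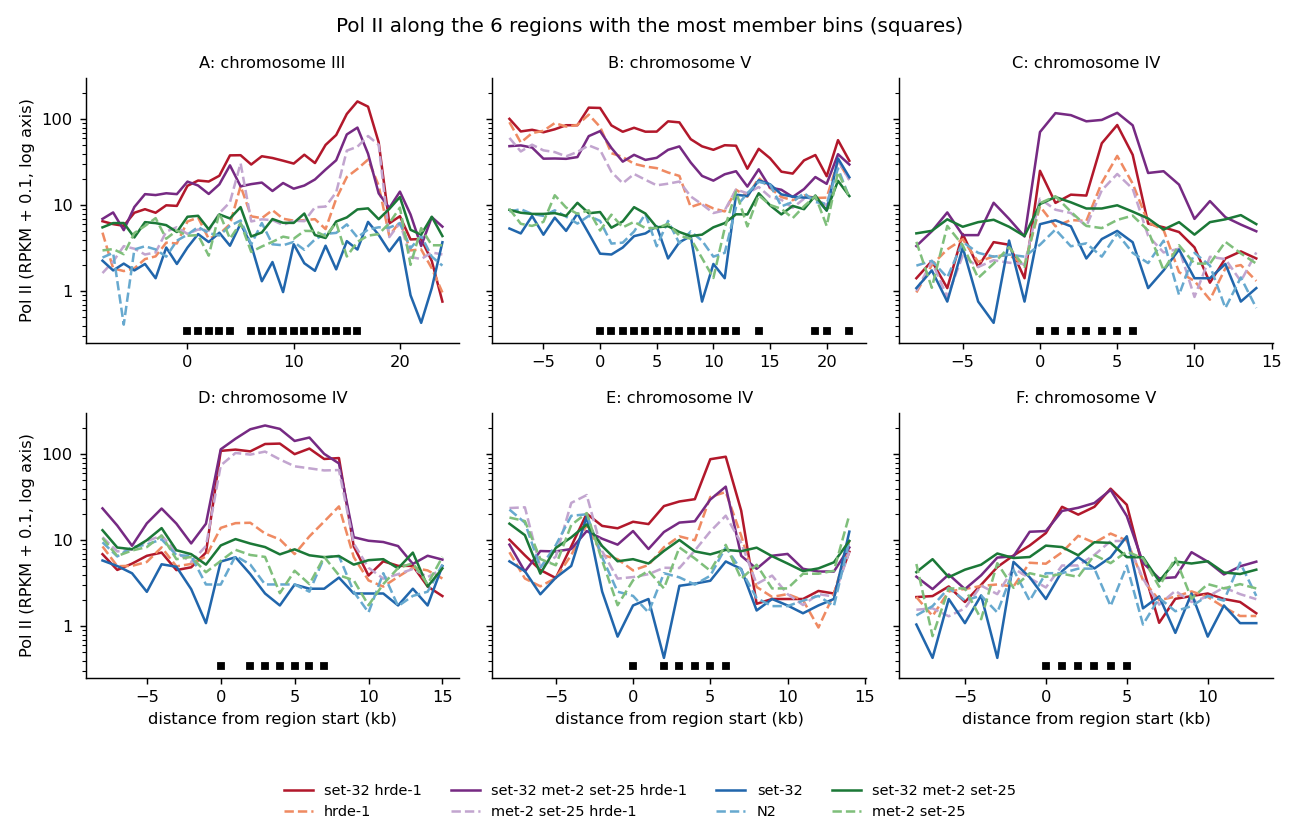
Pol II in RPKM (0.1 added, log axis) along the 6 regions with the most member bins, by distance in kb from the region's start, with 8 kb on either side. Solid lines are libraries with set-32 lost, dashed lines those with set-32 intact, and squares mark member bins. The regions start at 13224001 of chromosome III (A), 5192001 of V (B), 16312001 of IV (C), 913001 of IV (D), 1131001 of IV (E) and 792001 of V (F); set-32 hrde-1 averages 112 RPKM in D against 12.3 RPKM in hrde-1.

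In some strong contrasts hrde-1 loss alone had moved Pol II little in at least 1 background. From 18118001 to 18123000 of chromosome V, 5 members with no GRTS mark averaged 47.6 RPKM in set-32 hrde-1 against 5.78 RPKM in hrde-1, and 113 RPKM in the quadruple mutant against 22.4 RPKM in the met-2 set-25 hrde-1 triple. These are 8.24-fold and 5.04-fold differences. N2 averaged 5.31 RPKM, so hrde-1 was 1.09 times N2, whereas the met-2 set-25 hrde-1 triple was 3.99 times the 5.61 RPKM of met-2 set-25. On the X chromosome, where no bin carries the GRTS mark, the bin from 1666001 to 1667000 read 32.8 RPKM in set-32 hrde-1 against 2.27 RPKM in hrde-1, and 11.7 RPKM in the quadruple mutant against 1.82 RPKM in the met-2 set-25 hrde-1 triple. It read 0.99 RPKM in set-32, 2.16 RPKM in N2, 4.29 RPKM in the set-32 met-2 set-25 triple and 3.66 RPKM in met-2 set-25. Its smaller fold, 6.45, was the highest of the 169 members. Both of its folds rested on low levels, 2.27 RPKM in hrde-1 and 1.82 RPKM in the met-2 set-25 hrde-1 triple. With the libraries divided by their medians this bin did not meet the rule.

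Other regions with at least 2 members were shorter or weaker. From 792001 to 798000 of chromosome V, 6 members averaged 24.4 RPKM in set-32 hrde-1 against 9.1 RPKM in hrde-1, and 23.8 RPKM in the quadruple mutant against 6.48 RPKM in the met-2 set-25 hrde-1 triple. From 10936001 to 10941000 of chromosome II, 5 members averaged 172 RPKM in set-32 hrde-1 against 64.0 RPKM in hrde-1, and 109 RPKM in the quadruple mutant against 53.4 RPKM in the met-2 set-25 hrde-1 triple. Also on chromosome II, 2 members from 10123001 to 10125000 averaged 37.1 RPKM in set-32 hrde-1 against 11.8 RPKM in hrde-1, with 1.16 RPKM in set-32 and 2.37 RPKM in N2. A pair from 1484001 to 1486000 averaged 29.0 RPKM in set-32 hrde-1 against 8.65 RPKM in hrde-1. In each of these 4 regions the libraries with hrde-1 lost and set-32 intact were themselves above their hrde-1 intact counterparts. On X, 2 members from 17124001 to 17127000 were not: hrde-1 averaged 5.55 RPKM against 5.83 RPKM in N2, while set-32 hrde-1 averaged 16.0 RPKM.

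The 5 single members with the highest mean of set-32 hrde-1 and the quadruple mutant include IV 1106001, given above, and were a mixed group. V 10867001 to 10868000 read 147 RPKM in set-32 hrde-1 against 69.9 RPKM in hrde-1, and 94.6 RPKM in the quadruple mutant against 55.8 RPKM in the met-2 set-25 hrde-1 triple. III 2118001 to 2119000 read 24.1 RPKM in set-32 hrde-1 against 9.62 RPKM in hrde-1, and 41.4 RPKM in the quadruple mutant against 8.79 RPKM in the met-2 set-25 hrde-1 triple. IV 2710001 to 2711000 read 84.7 RPKM in set-32 hrde-1 against 48.6 RPKM in hrde-1, yet N2 read 114 RPKM there, and met-2 set-25 115 RPKM. V 10018001 to 10019000 read 42.7 RPKM in set-32 hrde-1 against 19.6 RPKM in hrde-1, with 31.6 RPKM in N2. In the last 2 bins Pol II in hrde-1 lay below N2, and set-32 hrde-1 lay between them in the first and above N2 in the second.

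Several runs of neighbouring bins also had more Pol II in N2 than in hrde-1. From 8866001 to 8868000 of chromosome I, 2 members averaged 31.7 RPKM in set-32 hrde-1 against 19.1 RPKM in hrde-1, and 28.2 RPKM in the quadruple mutant against 6.21 RPKM in the met-2 set-25 hrde-1 triple. With hrde-1 intact they averaged 18.8 RPKM in set-32 against 92.4 RPKM in N2, and 41.8 RPKM in the set-32 met-2 set-25 triple against 54.9 RPKM in met-2 set-25. From 1503001 to 1505000 of X the averages were 44.4 RPKM in set-32 hrde-1 against 27.0 RPKM in hrde-1, and 24.9 RPKM in set-32 against 78.9 RPKM in N2. From 11757001 to 11762000 of chromosome II, 5 members averaged 34.9 RPKM in set-32 hrde-1 against 21.1 RPKM in hrde-1, 5.4 RPKM in set-32 against 42.8 RPKM in N2, and 151 RPKM in the set-32 met-2 set-25 triple against 57.1 RPKM in met-2 set-25. In these regions N2 or a met-2 set-25 library was the highest of the 8, and none of these bins carries a GRTS mark.

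Loss of set-32 was then compared in the 4 libraries that had not chosen the bins. Each bin was tested with limma over set-32, N2, set-32 met-2 set-25 and met-2 set-25, with terms for set-32 and for met-2 set-25, on log2(RPKM + 1), with Benjamini-Hochberg adjustment over 100027 bins. By this test 0 members rose and 2 fell at an adjusted p under 0.05, against 0.025% and 0.144% of all bins tested, and every member was among the bins tested. At an unadjusted p under 0.05 there were 15 members, 3 higher and 12 lower, against 3.39% of all bins. The median estimate was 0.03 log2 units over the members and -0.0013 over all bins, and the median standard error of a member was 0.37 log2 units. With 1 residual degree of freedom, limma took nearly all of the spread from bins of like level, so a bin's own scatter between the 2 pairs hardly entered. In these 4 libraries the name prefix changes together with set-32, so prefix and genotype cannot be told apart.

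The 2 bins that fell followed the pattern of high Pol II in N2 and met-2 set-25. V 11888001 to 11889000 read 6.26 RPKM in set-32 against 18.6 RPKM in N2, and 11.9 RPKM in the set-32 met-2 set-25 triple against 31.3 RPKM in met-2 set-25 (log2 change -1.38 ± 0.30 SE, limma adjusted p = 0.00647). V 12552001 to 12553000 read 16.5 RPKM in set-32 against 81.7 RPKM in N2, and 30.4 RPKM in the set-32 met-2 set-25 triple against 59.8 RPKM in met-2 set-25 (log2 change -1.60 ± 0.38 SE, limma adjusted p = 0.0213). Neither passed when the libraries were centred on their medians (limma adjusted p = 1.000 for both). After centring the estimates were -1.35 at V 11888001 and -1.57 at V 12552001, and 2 of all bins fell in place of 144. The pair of set-32 and N2 gave -1.44 and -2.24 at these 2 bins, and the pair with met-2 and set-25 lost -1.32 and -0.95. Lower but not past the threshold were I 8866001 to 8867000 (log2 difference -1.51, limma adjusted p = 0.0828), X 9262001 to 9263000 (-1.08, 0.144) and V 6323001 to 6324000 (-1.04, 0.371). The highest estimates were 1.08 at V 796001 to 797000, which read 6.26 RPKM in set-32 against 1.62 RPKM in N2 and 9.24 RPKM in the set-32 met-2 set-25 triple against 5.33 RPKM in met-2 set-25, and 1.03 at IV 1106001 to 1107000 (limma adjusted p = 0.842 and 0.988). By size, II 1484001 to 1485000, II 13946001 to 13947000 and X 16830001 to 16831000 came next among higher estimates at 0.84, 0.68 and 0.67, and among lower ones I 8867001 to 8868000 and X 1504001 to 1505000 stood at -1.11 and -1.12. I 7892001 to 7893000 stood at 0.67 (limma adjusted p = 1.000).

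Pair by pair, the shares of members that moved with hrde-1 intact lay near those of all bins. Pol II was at least 1.5 times higher in set-32 than in N2 at 18 members and at least 1.5 times lower at 59, which is 10.7% and 34.9% of them, against 9.63% and 32.9% of all bins. In set-32 met-2 set-25 against met-2 set-25 it was higher at 58 and lower at 8, or 34.3% and 4.73%, against 28.8% and 7.79% of all bins. Of the members, 6 were 1.5 times higher in both pairs and 3 lower in both, against 2.61% and 1.85% of all bins. The median log2 difference of the members was -0.26 for set-32 against N2 and 0.30 for set-32 met-2 set-25 against met-2 set-25, and that of all bins -0.17 and 0.19. Against the hrde-1 mutants the picture differs by construction, since the median log2 differences there, 1.30 and 1.01, come from the choice of the bins.

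**Figure D4:**
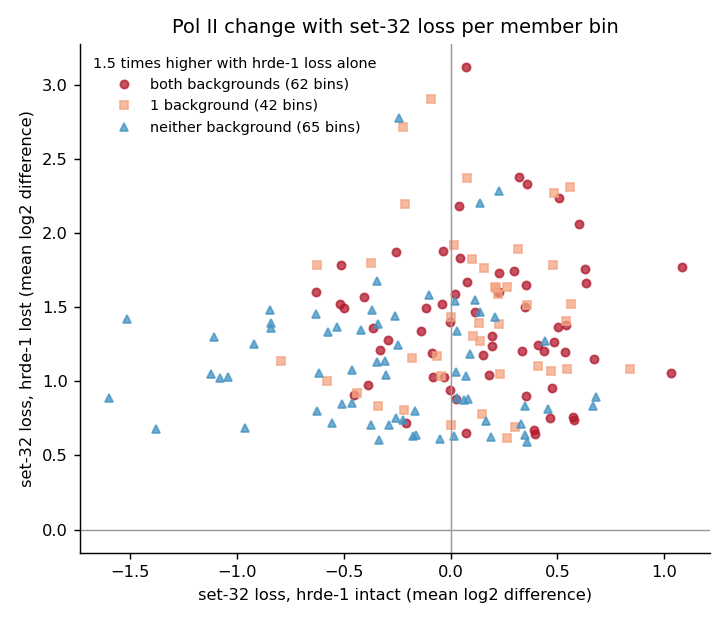
Each member bin by its mean log2 difference of set-32 loss with hrde-1 intact (horizontal axis, 2 pairs of libraries) and with hrde-1 lost (vertical axis, the 2 pairs that chose the bins), coloured by whether hrde-1 loss without set-32 loss raised the bin at least 1.5 times. The horizontal values run from -1.60 to 1.08 around a median of 0.03, and all bins below -1 are ones that hrde-1 loss alone raised in neither background. N2 and met-2 set-25 are the references for both the horizontal values and the colours, so these are linked by construction.

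Within the members the bins raised by hrde-1 loss alone in both backgrounds had median log2 differences of -0.15 for set-32 against N2 and 0.49 for set-32 met-2 set-25 against met-2 set-25. For the bins raised in neither they were -0.50 and 0.17. N2 and met-2 set-25 are the references both for these differences and for the split into classes. The differences and the classes are thus linked by construction, and nothing is read from this contrast. At the 24 GRTS members the median log2 differences in the same pairs were -0.21 and 0.42, and at the 167 GRTS bins that were not members -0.27 and 0.39. These GRTS bins outside the set read a median of 53.7 RPKM in set-32 hrde-1 against 36.1 RPKM in hrde-1, but 27.4 RPKM in the quadruple mutant against 42.6 RPKM in the met-2 set-25 hrde-1 triple. With hrde-1 intact their medians were 4.13 RPKM in set-32, 5.67 RPKM in N2, 7.92 RPKM in the set-32 met-2 set-25 triple and 5.77 RPKM in met-2 set-25.

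For loss of met-2 and set-25 in the same 4 libraries, 14 members rose and 0 fell (limma, Benjamini-Hochberg adjusted), against 0.486% and 0.095% of all bins tested. At an unadjusted p under 0.05, 39 members were higher and 2 lower, together 24.3%, against 14.8% of all bins. The 5 members of II 11757001 to 11762000 rose, with 151 RPKM in the set-32 met-2 set-25 triple against 5.4 RPKM in set-32, and 57.1 RPKM in met-2 set-25 against 42.8 RPKM in N2. So did 3 members of V 9087001 to 9090000, with 56.4 RPKM in the set-32 met-2 set-25 triple against 3.69 RPKM in set-32, and 25.6 RPKM in met-2 set-25 against 17.9 RPKM in N2. Of the region from 1448001 to 1452000 of chromosome IV 2 bins passed, as did IV 525001 to 526000, V 17618001 to 17619000 and 2 bins of V 20501001 to 20505000. Each of the 14 was higher in both pairs. The median estimate was 0.45 log2 units over the members and 0.45 over all bins, and 2 members passed when libraries were centred, of 102 bins in all in place of 486. Over the 14 members the log2 difference was 1.00 to 4.98 for set-32 met-2 set-25 against set-32, a pair in which the name prefix changes and the first library is the evenly covered one. It was 0.23 to 1.44 for met-2 set-25 against N2, which share a prefix. In the first pair prefix and genotype cannot be told apart.

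The 4 members of V 20501001 to 20505000 had their highest levels where HRDE-1, MET-2 and SET-25 were all lost. They averaged 149 RPKM in the quadruple mutant against 69.9 RPKM in the met-2 set-25 hrde-1 triple, and 20.8 RPKM in set-32 hrde-1 against 7.72 RPKM in hrde-1. With hrde-1 intact they averaged 18.4 RPKM in the set-32 met-2 set-25 triple against 15.6 RPKM in met-2 set-25, and 7.33 RPKM in set-32 against 7.26 RPKM in N2. The hrde-1 library was thus near the level of N2. Over all members, met-2 and set-25 loss gave a median log2 difference of -0.31 in set-32 hrde-1 and -0.11 in hrde-1. Over all bins these medians were 0.52 and 0.03. Over the other 24085 bins that reached 10 RPKM in both set-32 mutants with hrde-1 lost they were -0.31 and -0.11. The members' medians thus lay near those of other bins of that minimum level, in libraries that had chosen the bins. The quartiles were wider apart in the members. In hrde-1 they were -0.40 and 0.40, against -0.33 and 0.12 in those bins. In set-32 hrde-1 they were -0.80 and 0.14, against -0.62 and -0.04.

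The rule did not use the authors' marks or positions. GRTS bins made up 0.191% of all bins and 2.46% of bins of the reverse pattern. They were 0.648% of the other 24085 bins that reached 10 RPKM in both set-32 mutants with hrde-1 lost. Of the members they made up 24, or 14.2%. Put the other way, the members held 12.6% of the 191 GRTS bins. Whether the marks rest on hrde-1 mutant libraries is not stated, so these shares are not independent evidence. GRTS bins lay in 7 of the 70 regions, with 9 of the 24 at V 5192001 to 5207000 and 6 at IV 913001 to 921000. At most 5 kb from a GRTS bin lay 65 members, GRTS members included, and 104 lay farther away. By the GRH mark, 0 members were included, against 0.214% of all bins. Chromosome V held 53 members, III 31, IV 31, II 24, X 17 and I 13, that is 0.253% of the bins of V and 0.0863% of those of I. Outside the central part of the chromosomes, from 33.3 to 66.7% of their length, lay 84.6% of the members, 66.7% of all bins, 62.6% of the other 24085 bins that reached 10 RPKM in both set-32 mutants with hrde-1 lost, and 60.6% of the bins of the reverse pattern.

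The difference was smaller outside the regions. The bins compared there did not meet the rule in these same libraries, so a smaller difference was built in by the choice of the members. Around the 28 regions with at least 2 members, the non-member bins 1 kb outside had median log2 differences of 0.91 on the left and 0.88 on the right for set-32 hrde-1 against hrde-1, compared with 1.49 in the members. At 2 kb the medians were 0.34 and 0.49, and at 10 kb 0.04 and 0.02. For the quadruple mutant against met-2 set-25 hrde-1 the medians at 10 kb were 0.23 and 0.49, near the 0.38 of all bins. Between 24 and 28 bins entered each distance outside the regions. Of the 156 members with at least 3 values of at most 20 RPKM, 47 (30.1%) had mostly values that were not whole reads. The share was 18.2% of all bins and 9.60% of the bins of the reverse pattern. It was 22.1% of the other bins that reached 10 RPKM in both set-32 mutants with hrde-1 lost. Of the 47 members, 14 lay in the region from 13224001 to 13241000 of chromosome III.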

How the data were processed

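Pol II ChIP-seq of 8 genotypes was analysed from the deposited table of RPKM values, made by the authors in 100257 bins of 1 kb. Per the submitters' processing notes, Bowtie 0.12.7 was among the tools. The sources used here give neither genome build, filters nor how multiply mapping reads were handled. Chromosome V ends at 20920 kb in the table, which differs from the gene table at hand, so no gene or sequence is assigned and Pol II at the mutated genes was not checked. Columns were assigned through the sample descriptions, and 35 of the 43 library columns were not used. Yes-or-no marks GRTS, GRH and misanotated are the deposited ones.

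Depth was estimated from the step between low values, of which 83.0 to 84.4% (those up to 8 RPKM) were whole reads to within 0.1. Because of the fractions no count model was used. All bins averaging 2 RPKM or more over the 8 libraries were tested with limma 3.58.1 (R 4.3.3; trend, two-sided, Benjamini-Hochberg, threshold 0.05) on log2(RPKM + 1), and checked on simulated data. P-values measure the spread of single libraries around an additive model. Folds are ratios of RPKM. Regions merge members with at most 1 bin between them, and their values are means over member bins.

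Named are the 10 regions of at least 2 members with the largest mean of the smaller log2 ratio, the 5 with the most members, the 5 highest single members, the bins nearest the fold threshold, and members with the smallest adjusted p or largest estimate for set-32 loss with hrde-1 intact. Other regions and bins named (such as V 20501001, X 1666001 and those high in N2) were chosen after their values were seen. Members, lists, tests and rules were chosen with earlier results of these data known. Alternatives covered the fold, the minimum level, pseudocount, filter, scaling, an 8-library fit and leaving out libraries. Tables were made with pandas 2.3.3 and numpy 2.4.6 under Python 3.11.15, figures with matplotlib 3.10.9.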

Additional observations from a re-analysis of the deposited data

Results flagged for a closer look

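With hrde-1 intact, set-32 loss went opposite ways in the 2 backgrounds, each with 1 library per genotype, and the difference was not tested. Over the members the median log2 difference was -0.26 for set-32 against N2 and 0.30 for set-32 met-2 set-25 against met-2 set-25, while all bins moved by -0.17 and 0.19 in the same pairs. The other 24085 bins that reached 10 RPKM in both set-32 mutants with hrde-1 lost moved by 0.14 and -0.19. With the libraries centred on their medians the members' values were 0.019 and 0.0870, so the opposite signs over the members were lost. In 2 regions every member moved at least 1.5-fold in opposite directions. At II 11757001 to 11762000 the mean log2 difference was -2.81 for set-32 against N2 and 1.39 for set-32 met-2 set-25 against met-2 set-25. At V 9087001 to 9090000 the corresponding values were -2.02 and 1.11. Both regions fell with hrde-1 loss alone, at 21.1 RPKM in hrde-1 against 42.8 RPKM in N2 in the first and 11.2 RPKM in hrde-1 against 17.9 RPKM in N2 in the second. The same N2 library is the reference here and for set-32 against N2.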

How the results depend on the processing

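The set of bins depends on its thresholds and on scaling. It held 541 bins at the lower alternative fold, 70 at a fold of 2, 649 at a minimum of 5 RPKM and 83 at 20 RPKM. Dividing each library by its median, which lowers the evenly covered quadruple mutant library, left 71 bins, 60 of them among the 169, in 35 regions, and raised the reverse pattern to 572 bins. After that scaling no bin of IV 913001 to 921000 met the rule, 10 of 16 did at III 13224001 to 13241000, 5 of 14 at V 5192001 to 5207000, 7 of 7 at IV 16312001 to 16319000 and 4 of 5 at V 18118001 to 18123000. Centring turned the members' median for set-32 against N2 to 0.019, for met-2 set-25 against N2 (0.10 as measured) to -0.223 and for set-32 met-2 set-25 against set-32 (0.78) to -0.0317, and moved set-32 met-2 set-25 against met-2 set-25 to 0.0870. Quantile normalization gave -0.0573, -0.0984 and 0.221 for the first 3. With the members at a fold of 2 the last was 0.465 and set-32 met-2 set-25 against set-32 0.89; with the median-scaled members, set-32 against N2 was -0.38 and set-32 met-2 set-25 against set-32 0.93. For set-32 loss with hrde-1 intact, 0 members rose under any alternative run; 0 fell when centred, 1 after quantile normalization and 1 with robust moderation, an alternative chosen after seeing the data like the scaling of the reverse pattern. For met-2 set-25 loss 2 members rose when centred, of 102 bins in all, and 22 in the 8-library fit, of 593; in that fit 3 members fell for set-32 loss, of 219 bins. The 8-library fit takes part of its spread from the libraries that chose the bins. With 1 library with hrde-1 intact left out it takes all of its spread from them, and the effect comes from a single pair, so these counts say nothing about stability. They were 0 to 13 members lower for set-32 (0 of 6 bins without N2 and 0 of 6 without set-32, 13 of 204 without met-2 set-25 and 13 of 217 without the set-32 met-2 set-25 triple), and 0 to 15 higher for met-2 set-25 (0 of 16 bins without set-32 and 0 of 8 without that triple, 15 of 347 without N2 and 15 of 351 without met-2 set-25). The cause was not tested. No paired analysis was possible because the genotypes share no replicate numbers, each having 1 library; the limma fit itself compares set-32 loss within both met-2 set-25 backgrounds.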
